A study of Mus musculus with 12 samples.

Results

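TCRBJ02-05 is a joining (J) gene of the T-cell receptor β chain, and its use was followed in CD8+ T cells of mouse spleen, sorted into subsets, and in tumor-infiltrating CD8+ T cells (TILs). Its members were all rearrangements whose deposited J gene was TCRBJ02-05, which came to 30048 of 288925 rearrangement rows in 12 libraries. Of these, 21353 were productive (in frame with no stop codon), 8260 were out of frame and 435 were in frame with a stop codon. The files name 14 J genes in all.

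All libraries came from female C57BL/6 mice that bore MC38 tumors, a colon adenocarcinoma line, and that received both anti-CTLA-4 Ab and anti-PD-L1 Ab, so no untreated group was available for comparison. Each of 3 experiments gave 1 library of CD27lo CX3CR1- T cells, 1 of CD27hi CX3CR1- T cells, 1 of CX3CR1+ T cells and 1 of CD8+ TILs, and the experiments are called A, B and C. The labels write the subsets as CX3CR1lo and CX3CR1hi. The splenic subsets were flow-sorted, the TILs were taken from tumors by positive selection on CD8a, and each library held cells pooled from several mice. The sequenced genomic DNA carries no marker other than the receptor, so the labelled cell types could not be checked against their marker genes.

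A T-cell receptor β chain is made by joining a variable (V), a diversity (D) and a J gene, with bases trimmed from the ends and others inserted at the junctions. The stretch around the joins, the third complementarity-determining region (CDR3), contacts the peptide that a target cell presents. Cells of 1 clone carry the same rearrangement, so that the number of different rearrangements with a J gene reflects how often it was joined and kept, while the number of templates also counts how far each clone has grown. Out-of-frame rearrangements encode no receptor and are carried along in cells whose other allele is productive. Counted once each, they serve as a background whose own sequence selection on the receptor has not acted upon. Their templates also count how far each clone has grown.

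RefSeq places the gene, as Trbj2-5, in the second J cluster of the β locus at chr6:41543453-41543501 (GRCm38.p6, the mm10 assembly). It is a J segment 49 bp long, 1276 bp past the Trbd2 segment and 42 bp past Trbj2-4, and it lies 308 bp before Trbj2-7, the last J segment of the cluster. The deposited reads end inside it. The part of TCRBJ02-05 that was read, and that of TCRBJ02-07, are shown because the residues they encode mark the CDR3s described here and because their common end limits how far the J gene could be told.
TCRBJ02-05: AACCAAGACACCCAGTAC
TCRBJ02-07: CTCCTATGAACAGTAC
The 18 bases of TCRBJ02-05 were identical in all 6087 rearrangements with an untrimmed J end and, with the codon that follows, encode the residues NQDTQYF. The last 6 bases, CAGTAC, are common to both genes. A rearrangement that had lost 12 bases or more could therefore not be assigned, and the files list such rows as ties between both genes. No row called TCRBJ02-05 had lost more than 11 bases.

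Library depth differed between the groups. Productive templates, the assay's estimate of cells with a rearrangement, ranged from 18180 to 21622 in CD27lo CX3CR1- libraries, from 49116 to 71574 in CD27hi CX3CR1-, from 50994 to 113660 in CX3CR1+ and from 5893 to 20951 in TILs. TCRBJ02-05 accounted for 40085 of these templates in all, and for 528 in the shallowest library, the TILs of experiment A. A share resting on 3 templates, the detection floor, lay between 0.00264% and 0.0509%. The p-values come from exchanging group labels, or flipping signs, within 3 experiments, each a pool of mice. The intervals of single libraries (Wilson, 95%) cover counting error only.

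TCRBJ02-05 took a similar share of productive templates in all 4 groups. It made up 8.89%, 8.89% and 9.80% of templates in CD27lo CX3CR1- T cells, in the order of experiments A, B and C, and 8.42%, 8.38% and 8.05% in the CD27hi CX3CR1- libraries. For CX3CR1+ T cells the values were 7.23%, 8.47% and 6.99%. The TILs held 8.96%, 14.6% and 7.94%. The TIL library of experiment B stood above every other library, with an interval from 13.9% to 15.2%, and the remaining TIL libraries lay in the range of the splenic ones. This order left out the rows tied with TCRBJ02-07. With the ties counted as TCRBJ02-05, the TILs of experiment C came to 15.2% and those of experiment B to 14.6%.

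CX3CR1+ T cells and TILs together did not differ detectably from the CX3CR1- subsets. Their mean difference was 0.29 ± 2.29 percentage points (SD, n = 3 experiments), positive in 1 of 3 experiments, with an exact permutation p = 0.907 and an adjusted p = 0.926. Among the 12 J genes tested in this comparison, 0% were called higher and 25% lower after adjustment, so TCRBJ02-05 was among the J genes that were not called. At an unadjusted p under 0.05 the counts were 1 higher and 5 lower. CX3CR1+ T cells alone stood lower than the CX3CR1- subsets in 3 of 3 experiments, by 1.42, 0.171 and 1.93 percentage points, which did not pass the test (exact permutation p = 0.111, adjusted p = 0.190). TILs alone exceeded the CX3CR1- subsets by 1.75 ± 3.67 points (exact permutation p = 0.222, adjusted p = 0.242). The mean turned to -0.340 points when experiment B was left out.

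The tied rows moved these values. With ties counted as TCRBJ02-05, a step added after the data were seen, the combined difference was 1.96 points (exact permutation p = 0.25, adjusted p = 0.375). CX3CR1+ T cells alone then differed by -0.129 points and were higher in 1 of 3 experiments (exact permutation p = 0.926, adjusted p = 0.963). TILs alone exceeded the CX3CR1- subsets by 4.06 points and in 3 of 3 experiments (exact permutation p = 0.0741, adjusted p = 0.111). None of the 3 differences passed the test either way, and none had an unadjusted p under 0.05. For either group alone the exact permutation test goes no lower than p = 0.0370. Such a p passes after adjustment only if most of the J genes tested reach it together. The adjusted tests of CX3CR1+ T cells alone and of TILs alone could therefore hardly pass, and their failure to pass is no evidence of equal shares.

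The remaining pairs of groups could not reach significance, since an exact sign-flip test over 3 experiments goes no lower than p = 0.25. TILs exceeded CX3CR1+ T cells by 2.92 ± 2.77 points and in 3 of 3 experiments (exact sign-flip p = 0.25). CD27lo exceeded CD27hi CX3CR1- T cells by 0.907 ± 0.732 points, also in 3 of 3 (exact sign-flip p = 0.25). Both therefore gave the smallest p that the design allows.

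**Figure D1:**
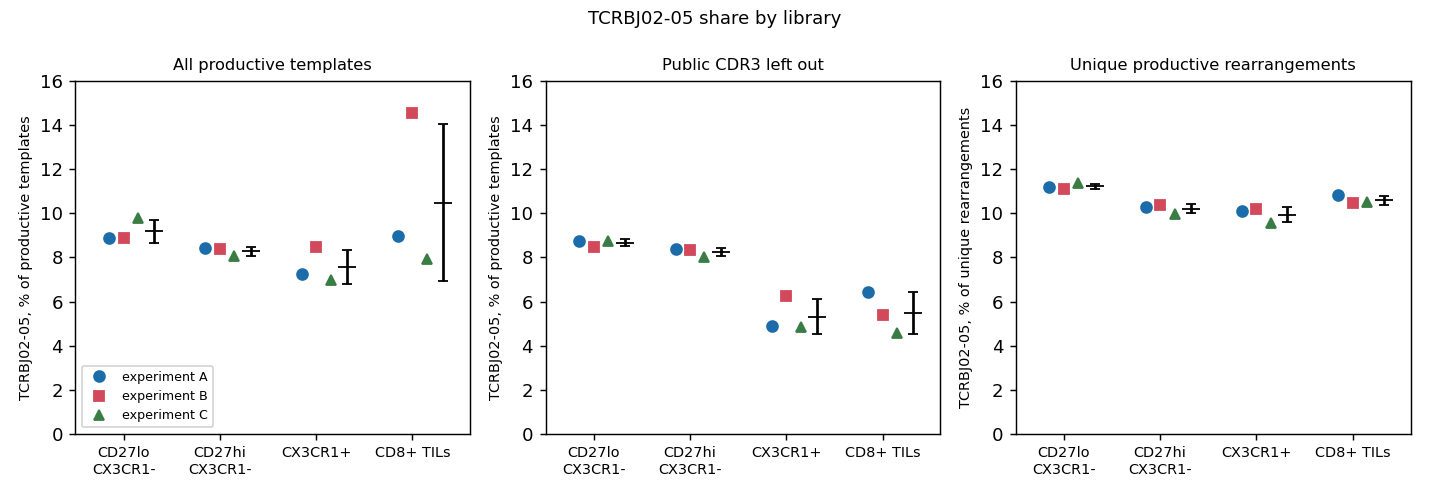
TCRBJ02-05 as a percent of productive templates (left), of productive templates after the public CDR3 was left out (middle) and of unique productive rearrangements (right), by group. Coloured points are libraries and black marks are the mean and SD of 3 experiments; the 6 CX3CR1+ and TIL libraries fall below all 6 CX3CR1- libraries only in the middle panel, where they lie between 4.58% and 6.45%.

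Counted as unique rearrangements, TCRBJ02-05 made up close to the same share everywhere. The share was 11.2%, 11.1% and 11.4% in CD27lo CX3CR1- T cells and 10.3%, 10.4% and 9.98% in CD27hi CX3CR1- T cells. It was 10.1%, 10.2% and 9.55% in CX3CR1+ T cells and 10.8%, 10.5% and 10.5% in TILs. The highest and the lowest library thus lay fewer than 2 percentage points apart, and the CD27lo CX3CR1- libraries were the 3 highest. CX3CR1+ T cells and TILs stood 0.45 ± 0.19 points lower than the CX3CR1- subsets in 3 of 3 experiments, without passing the test (exact permutation p = 0.204, adjusted p = 0.574). In this comparison 0% of the 12 J genes were called in either direction, while 1 was higher and 1 lower at an unadjusted p under 0.05. Drawn down by calculation to the depth of the shallowest library, the difference was -0.0893 points. CD27lo exceeded CD27hi CX3CR1- T cells by 1.00 ± 0.34 points in 3 of 3 experiments, with the smallest p that the sign-flip test allows (exact p = 0.25).

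Out-of-frame rearrangements held TCRBJ02-05 at nearly the same frequency. Its share of unique out-of-frame rearrangements was 10.9%, 10.8% and 10.7% in CD27lo CX3CR1-, 10.4%, 10.3% and 10.2% in CD27hi CX3CR1-, 9.72%, 10.6% and 9.21% in CX3CR1+ and 12.1%, 10.1% and 9.55% in TIL libraries. The productive share was the higher one in 8 of 12 libraries, and all 3 CD27lo CX3CR1- libraries were among them. Averaged over the libraries of an experiment, the productive share exceeded the out-of-frame share by 0.104 ± 0.319 points (exact sign-flip p = 0.75, smallest possible 0.25). The TIL libraries had only 69 to 99 out-of-frame TCRBJ02-05 rearrangements, and their intervals spanned more than 3 points each.

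**Figure D2:**
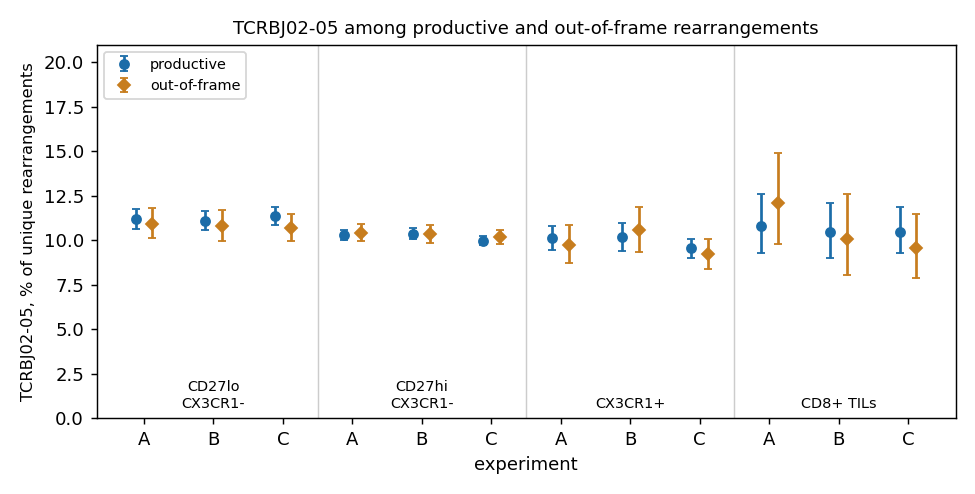
TCRBJ02-05 as a percent of unique productive (circles) and unique out-of-frame (diamonds) rearrangements in each library, with Wilson 95% intervals. The intervals of both kinds overlap in every library, and the widest one, for out-of-frame rearrangements in TILs of experiment A, runs from 9.79% to 14.9%.

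The public CDR3 named by the study, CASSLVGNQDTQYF, was the leading TCRBJ02-05 sequence. All 81 rows with it carried TCRBJ02-05, with all 7 germline residues of the J gene in place, and 98.8% of its 7715 templates were joined to TCRBV12-01. It made up 2.48%, 2.38% and 2.27% of all productive templates in CX3CR1+ T cells and 2.68%, 9.68% and 3.52% in TILs. In CD27lo CX3CR1- T cells it made up 0.147%, 0.451% and 1.14%, and in CD27hi CX3CR1- T cells 0.0593%, 0.0672% and 0.0279%. The groups kept apart with no overlap between the CX3CR1- libraries and the others. This CDR3 was chosen because it is known to be high in TILs and CX3CR1+ T cells, so its levels are given without a test.

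Within the TCRBJ02-05 templates the same CDR3 accounted for 34.3%, 28.1% and 32.5% in CX3CR1+ T cells and for 29.9%, 66.5% and 44.3% in TILs. It accounted for 1.65%, 5.07% and 11.6% in CD27lo CX3CR1- T cells and for less than 1% in CD27hi CX3CR1- T cells. The high TCRBJ02-05 share of the TILs of experiment B went together with the highest level of this CDR3.

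The public CDR3 was encoded by 37 nucleotide rearrangements, more than any of the 14940 TCRBJ02-05 CDR3s, 83.8% of which had 1 rearrangement each. All of the 37 had an untrimmed J end, and 15 used TCRBV12-01. Many of them had only 1 or a few templates, and some carried the junction of the largest one on another V gene. Whether each of the 37 came from a joining of its own was not tested. The most abundant rearrangements of each experiment are shown, with the bases that TCRBJ02-05 supplied in capitals, because they encode the same amino acids with different bases.
Public CDR3, experiments A and C: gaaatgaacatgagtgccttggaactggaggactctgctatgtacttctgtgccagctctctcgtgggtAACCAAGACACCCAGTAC
Public CDR3, experiment B: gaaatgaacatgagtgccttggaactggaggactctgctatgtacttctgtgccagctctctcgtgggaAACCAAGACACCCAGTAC
The first had 3797 templates in 11 libraries and was the largest TCRBJ02-05 rearrangement in CX3CR1+ T cells and in TILs of experiments A and C. The second had 921 templates in the TILs of experiment B, where it was the most abundant rearrangement of all J genes at 7.43% of productive templates, and was seen in no library of another experiment. Counted from 1 at the first base shown, the second differs from the first by T69A, the base next to the J gene. Another rearrangement, with 1249 templates, differs from the first by T69C alone. The 3 together held 80.4% of the templates of this CDR3.

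The public CDR3 was then left out. The share of TCRBJ02-05 among the remaining productive templates was 8.75%, 8.48% and 8.76% in CD27lo CX3CR1- T cells and 8.37%, 8.32% and 8.02% in CD27hi CX3CR1- T cells. It was 4.87%, 6.23% and 4.83% in CX3CR1+ T cells and 6.45%, 5.40% and 4.58% in TILs. All 6 libraries of the latter groups lay below all 6 CX3CR1- libraries. The difference was -3.06 ± 0.57 points (SD, n = 3), negative in 3 of 3 experiments, against 0.29 before the removal. The test fixed for it gave an exact permutation p = 0.00926, the smallest that the design allows, and an adjusted p = 0.0370. Removing a CDR3 known to be high in CX3CR1+ T cells and TILs lowers its J gene there by construction, so the difference is given as a description and the p supports nothing further. Its direction turned under a filter on low counts, whose values are given with the templates per rearrangement.

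After the same removal, 25% of the 12 J genes were called lower and 0% higher, TCRBJ01-01 and TCRBJ02-04 being the other two. Those were called lower before it as well, and their differences moved from -2.83 to -2.66 and from -1.91 to -1.79 points. The removal took a large clone family from the TCRBJ02-05 templates of CX3CR1+ T cells and TILs and left the large clones of the other J genes in place. In a step added after the data were seen, the most abundant rearrangement of every J gene was left out of each library instead. The difference was then -0.161 points, positive in 1 of 3 experiments (exact permutation p = 0.833). This took 1 rearrangement per J gene and no whole clone family, so it was not a like removal. CX3CR1+ T cells then held 5.90%, 10.7% and 6.54%, and TILs 9.35%, 10.0% and 8.22%. The CX3CR1- libraries lay between 8.05% and 9.06%.

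The rows tied between TCRBJ02-05 and TCRBJ02-07 weighed on the same comparison. They made up 0.0925% to 0.160% of productive templates in CX3CR1- libraries. In experiment C they made up 3.12% of those in CX3CR1+ T cells and 7.28% of those in TILs, nearly all in a pair of TCRBV13-01 rearrangements, which are shown because they could belong to either J gene. Capitals mark the 6 bases that both genes have in common.
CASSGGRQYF: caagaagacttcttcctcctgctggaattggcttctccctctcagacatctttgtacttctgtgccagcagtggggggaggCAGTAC
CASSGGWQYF: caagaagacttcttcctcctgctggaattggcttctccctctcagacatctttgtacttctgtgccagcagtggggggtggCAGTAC
The first had 3439 templates in CX3CR1+ T cells and 871 in TILs of experiment C, and the second had 639 in the TILs of that experiment and 0 in its CX3CR1+ T cells. With all ties counted as TCRBJ02-05, the share without the public CDR3 came to 8.02% for CX3CR1+ T cells and 12.1% for TILs in experiment C. The difference from the CX3CR1- subsets then was -1.32 ± 2.49 points and no longer passed the test (exact permutation p = 0.204, adjusted p = 0.347).

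Close relatives of the public CDR3 were also frequent. TCRBJ02-05 CDR3s with its first 4 and last 8 residues and any residues in the 2 places between them comprised 97 sequences. Without the public CDR3 itself, this frame made up 1.14%, 1.20% and 1.10% of productive templates in CX3CR1+ T cells and 0.0679%, 0.549% and 0.554% in TILs. The CX3CR1- libraries lay between 0.0824% and 0.248%, above the TILs of experiment A and below the other 5 libraries. The frame was chosen from the public CDR3 and was not tested. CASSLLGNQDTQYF was the only other CDR3 that reached 0.1% in libraries of 2 or more experiments, at 0%, 0.412% and 1.00% in CX3CR1+ T cells and 0%, 0.420% and 0.539% in TILs. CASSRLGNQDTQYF reached 1.12% in CX3CR1+ T cells of experiment A, while none of its templates was seen in the TILs of that experiment, which allows a share of up to 0.0509%.

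Most TCRBJ02-05 templates of CX3CR1+ T cells and TILs lay in expanded rearrangements, defined as at least 0.1% of the productive templates of their library. Such rearrangements numbered 4, 14 and 8 in CX3CR1+ T cells and 6, 12 and 10 in TILs, in the order A, B and C. Of all expanded rearrangements these were 2.80%, 11.1% and 5.56% in CX3CR1+ T cells and 5.22%, 9.38% and 7.63% in TILs. The TCRBJ02-05 share of unique rearrangements was 10.1%, 10.2% and 9.55% in CX3CR1+ T cells and 10.8%, 10.5% and 10.5% in TILs. The CD27lo CX3CR1- libraries had 2, 0 and 2 of 7, 2 and 8, and the CD27hi CX3CR1- libraries had 0 of 0, 1 and 0. Expanded TCRBJ02-05 rearrangements held 66.9%, 65.5% and 54.8% of its templates in CX3CR1+ T cells and 67.2%, 87.9% and 74.3% in TILs. Templates of the other J genes lay in expanded rearrangements to a like extent, at 59.7% to 65.5% in CX3CR1+ T cells and 67.6% to 76.8% in TILs.

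No excess of expansion over the other J genes was detected for TCRBJ02-05. The difference between them changed by -0.0877 ± 7.66 points from the CX3CR1- subsets to CX3CR1+ T cells and TILs (exact permutation p = 0.963), and TCRBJ02-05 was the higher one in 2 of the 6 CX3CR1+ and TIL libraries. Without the public CDR3 this value was -15.4 points, a direction set by construction, since the removal took 18 expanded entries from TCRBJ02-05 and none from the other J genes.

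**Figure D3:**
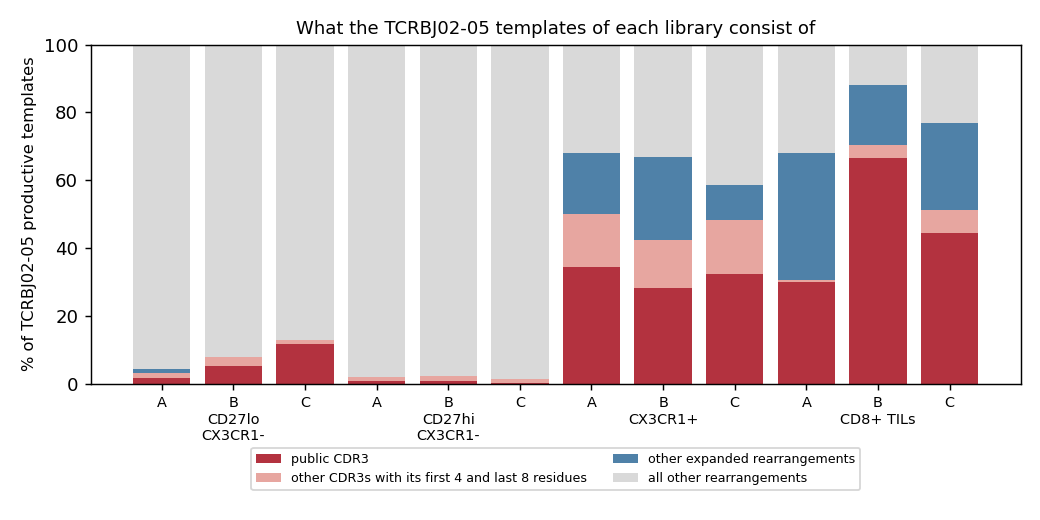
Make-up of the TCRBJ02-05 productive templates of each library, in percent, by experiment and group. The public CDR3 (dark red) and its relatives (light red) fill 30.7% to 70.3% of the bars of CX3CR1+ T cells and TILs, and rearrangements under 0.1% of their library (grey, public CDR3 and relatives apart) fill 87.0% or more of every CX3CR1- bar.

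Among the 54 expanded TCRBJ02-05 entries of the CX3CR1+ and TIL libraries, some features were more frequent than with other J genes. TCRBV12-01 was used by 27 of them, or 50.0%, against 4.91% of the 733 expanded entries with other J genes. The J end was untrimmed in 63.0%, against 28.1%. A CDR3 of 42 nucleotides was found in 66.7%, against 29.7%. Of the 54 entries 18 were rearrangements of the public CDR3, which has 42 nucleotides and an untrimmed J end by its own sequence. Relatives in its frame were among the others. These contrasts thus restate that clone family in part, and values without it were not calculated. Libraries of the same experiment also have clones in common, so these counts are not independent and were not tested.

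The most abundant TCRBJ02-05 rearrangement other than the public CDR3 is shown for each CX3CR1+ and TIL library, with TCRBJ02-05 bases in capitals, because together they show how much of the J gene the leading clones kept.
CX3CR1+, experiment A: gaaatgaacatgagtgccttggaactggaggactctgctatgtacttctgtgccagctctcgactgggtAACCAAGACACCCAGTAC
CX3CR1+, experiment B: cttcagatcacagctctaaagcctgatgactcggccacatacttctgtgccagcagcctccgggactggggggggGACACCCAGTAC
CX3CR1+, experiment C: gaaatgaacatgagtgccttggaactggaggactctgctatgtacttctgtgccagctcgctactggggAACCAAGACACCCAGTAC
TILs, experiment A: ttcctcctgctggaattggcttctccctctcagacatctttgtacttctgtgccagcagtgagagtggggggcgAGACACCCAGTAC
TILs, experiment B: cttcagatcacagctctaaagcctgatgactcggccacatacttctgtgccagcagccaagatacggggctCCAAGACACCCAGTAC
TILs, experiment C: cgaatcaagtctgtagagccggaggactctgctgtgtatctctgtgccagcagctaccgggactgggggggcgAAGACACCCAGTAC
The CX3CR1+ sequences of experiments A and C joined TCRBV12-01 to an untrimmed J gene and encode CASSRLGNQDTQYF and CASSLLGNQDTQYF. They had 613 templates (1.10%) and 551 templates (0.485%). In CX3CR1+ T cells of experiment A the rank was tied. A TCRBV13-01 rearrangement that had lost 5 J bases and encodes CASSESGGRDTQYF also had 613 templates. It is the sequence shown for TILs of that experiment. In experiment B a further TCRBV12-01 rearrangement with an untrimmed J gene, encoding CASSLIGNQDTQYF, had 381 templates (0.747%) in CX3CR1+ T cells. The CX3CR1+ sequence of experiment B joined TCRBV02-01, had lost 6 bases of the J gene and had 458 templates (0.898%).
The leading TIL sequences had each lost J bases, namely 5, 2 and 4 in experiments A, B and C. In TILs of experiment A the sequence joined TCRBV13-01, encodes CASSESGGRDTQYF and had 152 templates (2.58%), and the same rearrangement had 613 templates (1.10%) in CX3CR1+ T cells. The next TIL clone of experiment A, also with TCRBV13-01, had 21 templates (0.356%) and a CDR3 of 18 residues. In TILs of experiment B it joined TCRBV02-01 and had 71 templates (0.573%). In TILs of experiment C it joined TCRBV04-01 and had 282 templates (1.35%), against 310 (0.273%) in CX3CR1+ T cells.

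V partners of TCRBJ02-05 overlapped between the groups when rearrangements were counted and stood apart when templates were counted. Among 26 V genes, TCRBV13-02 was the most frequent partner, with a mean of 10.0% of unique TCRBJ02-05 rearrangements (SD 1.25, n = 12 libraries), against 8.90% with the other J genes, and was higher with TCRBJ02-05 in 11 of 12 libraries. TCRBV12-01 followed at 8.96% (SD 2.67), against 7.39% with other J genes and higher in 8 of 12. TCRBV12-02 made up 7.16% against 5.24% and was higher in 11 of 12. In contrast, TCRBV03-01 made up 6.00% against 6.93% and was higher in 1 of 12, and TCRBV19-01 made up 7.11% against 8.32% and was higher in 4 of 12. These libraries were not tested as replicates, since those of 1 experiment came from the same mice.

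Among the 9 V genes named by rule, TCRBV12-02 was the only one more frequent among productive than out-of-frame TCRBJ02-05 rearrangements in 12 of 12 libraries. It made up 3.20% of the out-of-frame ones. TCRBV12-01 made up 6.50% of the out-of-frame ones and was more frequent among productive ones in 11 of 12. TCRBV04-01 went the other way, with 4.50% of productive and 8.32% of out-of-frame rearrangements, and was more frequent among productive ones in 0 of 12 libraries. A pair of V genes outside the rule, chosen after their values were seen, differed by a larger ratio in the same directions. TCRBV29-01 made up 5.59% of productive and 2.14% of out-of-frame rearrangements and was higher among productive ones in 12 of 12 libraries, while TCRBV24-01 made up 1.35% and 7.66% and was higher in 0 of 12.

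Counted by templates, TCRBV12-01 led in CX3CR1+ T cells and TILs. It made up 51.8%, 47.8% and 50.2% of TCRBJ02-05 templates in CX3CR1+ T cells and 30.9%, 71.6% and 54.3% in TILs. It made up 9.06%, 12.9% and 19.1% in CD27lo CX3CR1- T cells and 9.75%, 9.20% and 9.76% in CD27hi CX3CR1- T cells, below every CX3CR1+ and TIL library. Much of this was the public CDR3. Without it, TCRBV12-01 made up 27.1% to 27.4% in CX3CR1+ T cells, against 7.53% to 9.48% in CX3CR1- libraries. In TILs it ranged from 1.35% to 17.9% and overlapped with the CX3CR1- libraries. Relatives in the frame of the public CDR3 were not left out here. Together with the public CDR3 they held 50.1%, 42.3% and 48.2% of TCRBJ02-05 templates in CX3CR1+ T cells, whatever the V gene. TCRBV12-01 was not counted without these relatives.

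Other partners stood high in single libraries. TCRBV13-01 made up 33.9% of TCRBJ02-05 templates in TILs and 19.2% in CX3CR1+ T cells of experiment A, where the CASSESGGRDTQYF clone was found. TCRBV04-01 made up 17.7% in the TILs of experiment C, and TCRBV02-01 made up 11.4% in CX3CR1+ T cells of experiment B. Each of these V genes lay between 0.595% and 7.53% in the other libraries.

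**Figure D4:**
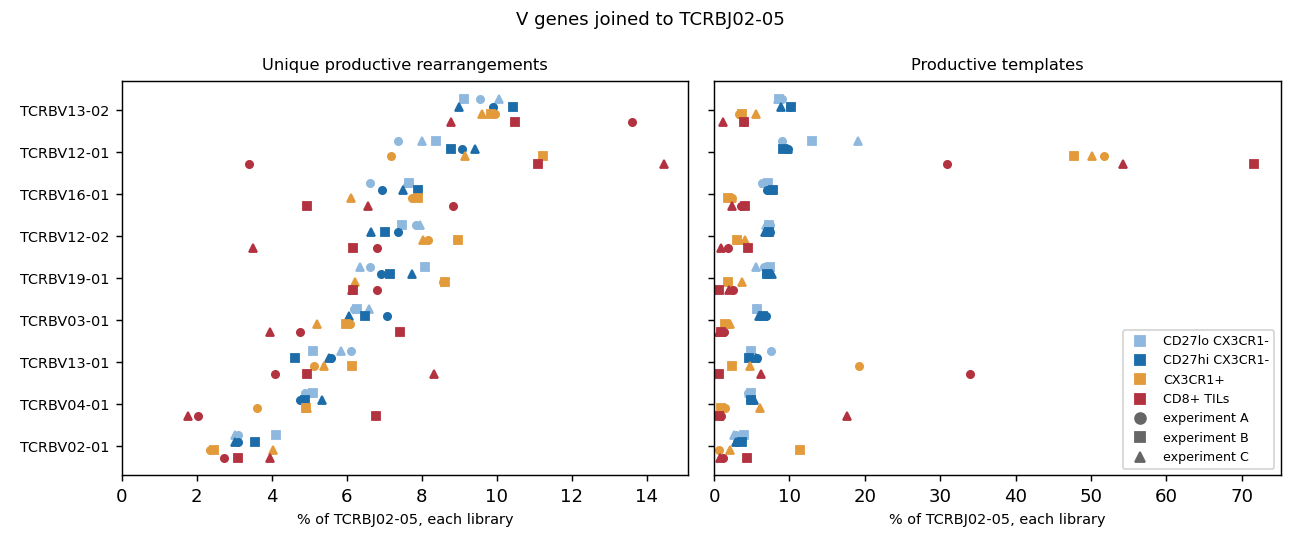
The 9 V genes named by rule, as a percent of unique productive TCRBJ02-05 rearrangements (left) and of TCRBJ02-05 productive templates (right); each point is a library, with its group in colour and its experiment by shape. TCRBV12-01 lies between 30.9% and 71.6% of templates in CX3CR1+ T cells and TILs, while its share of unique rearrangements spans 3.40% to 14.5% with no separation of the groups.

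CDR3s with TCRBJ02-05 were of similar length in all groups. Unique productive rearrangements averaged 42.3, 42.2, 42.1 and 42.2 nucleotides in CD27lo CX3CR1-, CD27hi CX3CR1-, CX3CR1+ and TIL libraries, and single libraries ranged from 41.9 to 42.5. CX3CR1+ T cells and TILs differed from the CX3CR1- subsets by -0.0756 ± 0.122 nucleotides (exact permutation p = 0.370). In 12 of 12 libraries the mean was higher for TCRBJ02-05 than for the other J genes, which averaged 41.8 nucleotides. Weighted by templates, the difference between the groups was 0.259 nucleotides in the opposite direction (exact permutation p = 0.0463).

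The most frequent length was that of the public CDR3, 42 nucleotides. It was found in 31.3% to 36.3% of unique TCRBJ02-05 rearrangements of a library. By templates it made up 74.9%, 55.8% and 61.0% in CX3CR1+ T cells and 73.5%, 81.1% and 57.4% in TILs, against 33.0% to 40.2% in CX3CR1- libraries. Without the public CDR3 it made up 61.7%, 38.5% and 42.3% in CX3CR1+ T cells, all above the CX3CR1- libraries at 31.4% to 37.0%. The TILs then held 62.2%, 43.7% and 23.5%, and those of experiment C lay below every CX3CR1- library. Relatives in the frame of the public CDR3 have this length by definition and were not left out.

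Of the 7 germline J residues, productive rearrangements kept all in 20.2%, the last 6 in 40.7%, the last 5 in 34.8% and 4 or fewer in 4.28%. All 7 were kept in 19.6% to 20.2% of unique rearrangements in CD27hi CX3CR1- libraries, 19.3% to 22.9% in CD27lo CX3CR1-, 20.4% to 20.7% in CX3CR1+ and 21.9% to 25.9% in TIL libraries. By templates, rearrangements with all 7 made up 55.2% to 57.3% in CX3CR1+ T cells and 38.8% to 78.9% in TILs, against 19.5% to 32.3% in CX3CR1- libraries. Without the public CDR3, CX3CR1+ T cells held 31.8% to 38.2% and lay above the CX3CR1- libraries at 18.9% to 23.4%. TILs then ranged from 12.7% to 36.9% and overlapped with the CX3CR1- libraries. Relatives in the frame of the public CDR3 keep all 7 residues by definition and were not left out. They held 15.8%, 14.2% and 15.8% of all TCRBJ02-05 templates in CX3CR1+ T cells, and the values without them were not calculated.

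Features of the joins were close in productive and out-of-frame rearrangements. The J end was untrimmed in 21.1% of unique productive and 21.6% of unique out-of-frame TCRBJ02-05 rearrangements, as means over 12 libraries. TCRBD02-01 was assigned to 51.2% and 49.0%, and was the more frequent one among productive rearrangements in 10 of 12 libraries. Inserted bases averaged 3.59 and 3.97, and out-of-frame rearrangements had more of them in 11 of 12. Weighted by templates, productive rearrangements had 2.92 ± 0.23 inserted bases in CX3CR1+ T cells, 3.03 ± 0.52 in TILs, 3.39 ± 0.06 in CD27lo CX3CR1- and 3.51 ± 0.06 in CD27hi CX3CR1- T cells (SD, n = 3). The TILs of experiments A, B and C had 3.62, 2.65 and 2.82, and the first was the highest of the 12 libraries. Rearrangements of the public CDR3 had a median of 2 inserted bases, and the weighted values without it were not calculated.

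Most TIL templates with TCRBJ02-05, though fewer of its rearrangements, had a match among CX3CR1+ T cells from the same mice. Of the TCRBJ02-05 rearrangements in TILs, 17 of 147 (11.6%), 60 of 162 (37.0%) and 104 of 228 (45.6%) had such a match in experiments A, B and C. These held 68.6% to 93.5% of TCRBJ02-05 TIL templates, against 63.4% to 86.8% for the other J genes. In CX3CR1+ T cells of another experiment the range was 0% to 30.1% for TCRBJ02-05 and 3.19% to 14.1% for the other J genes. Without the public CDR3, the range for TCRBJ02-05 was 55.1% to 85.2% within an experiment and 0% to 7.12% across experiments. The CX3CR1- subsets of the same experiment also matched most TCRBJ02-05 TIL templates, at 63.6% to 70.4% for CD27lo and 53.0% to 72.7% for CD27hi. Without the public CDR3 these ranges were 12.3% to 51.0% and 15.6% to 42.7%. For the other J genes the CD27lo and CD27hi ranges were 35.0% to 60.3% and 24.9% to 52.3%.

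Of the 28 expanded TCRBJ02-05 rearrangements of TILs, 24 had a match in CX3CR1+ T cells from the same mice, and 12 were expanded there too. These 12 were 42.9% of those expanded in TILs and 46.2% of the 26 expanded in CX3CR1+ T cells. CD27lo and CD27hi CX3CR1- T cells held 15 and 13 of the 28, again within an experiment. These overlaps were not counted for the other J genes, so whether they are particular to TCRBJ02-05 is not known. The deeper CX3CR1+ libraries had more chance to show a clone, and the part of depth in these counts was not tested.

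Out-of-frame template shares varied more in CX3CR1+ T cells and TILs than in the CX3CR1- subsets. TCRBJ02-05 made up 8.44% to 8.80% of out-of-frame templates in CX3CR1- libraries, 7.31%, 5.89% and 3.13% in CX3CR1+ T cells and 7.21%, 21.7% and 4.78% in TILs. In the TILs of experiment B, 1 rearrangement held 712 templates, or 77.6% of those with TCRBJ02-05, and the same one had 255 in CX3CR1+ T cells of that experiment. It is shown because it moved the share of a whole library without encoding a receptor.
Out-of-frame, TCRBV19-01, experiment B: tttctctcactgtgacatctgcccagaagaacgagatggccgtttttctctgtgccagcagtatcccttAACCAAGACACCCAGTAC
CX3CR1+ T cells and TILs differed from the CX3CR1- subsets by -0.271 ± 4.93 points (exact permutation p = 0.963), and 0% of the 12 J genes were called in either direction, against 2 lower at an unadjusted p under 0.05. After the most abundant out-of-frame TCRBJ02-05 rearrangement of each library was left out, an alternative added after the data were seen, the difference was -4.04 ± 1.52 points. That clone held 11.1% to 77.6% of the out-of-frame TCRBJ02-05 templates in CX3CR1+ and TIL libraries and 0.129% to 2.56% in CX3CR1- libraries, and the other J genes kept theirs, so this value is a description.

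The number of templates per rearrangement differed by J gene. In CX3CR1- libraries, where expanded clones were few, a productive TCRBJ02-05 rearrangement had a mean of 1.10 templates (range 1.04 to 1.20 over 6 libraries), the fourth lowest of 12 J genes. TCRBJ01-06 had the lowest at 1.03 and TCRBJ02-07 the highest at 1.89. Out-of-frame rearrangements gave the same order of all 12 J genes, with 1.06 for TCRBJ02-05 and 1.79 for TCRBJ02-07. In these libraries 2 or more templates were counted for 4.83% of productive TCRBJ02-05 rearrangements and for 72.9% of those with TCRBJ02-07. Template shares and unique shares therefore weighed the J genes differently, and the cause of the difference was not tested. TCRBJ02-05 held a lower share of templates than of unique rearrangements in 11 of 12 libraries.

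A filter on low counts acted on this difference. When only rearrangements with 2 or more templates were kept, the TCRBJ02-05 template share was 6.18 points higher in CX3CR1+ T cells and TILs than in the CX3CR1- subsets (exact permutation p = 0.00926, adjusted p = 0.0278). The difference without the public CDR3 turned from -3.06 to 2.85 points (exact permutation p = 0.00926, adjusted p = 0.0278). In CX3CR1- libraries the filter thus kept few rearrangements with TCRBJ02-05 and most of those with TCRBJ02-07.

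**Figure D5:**
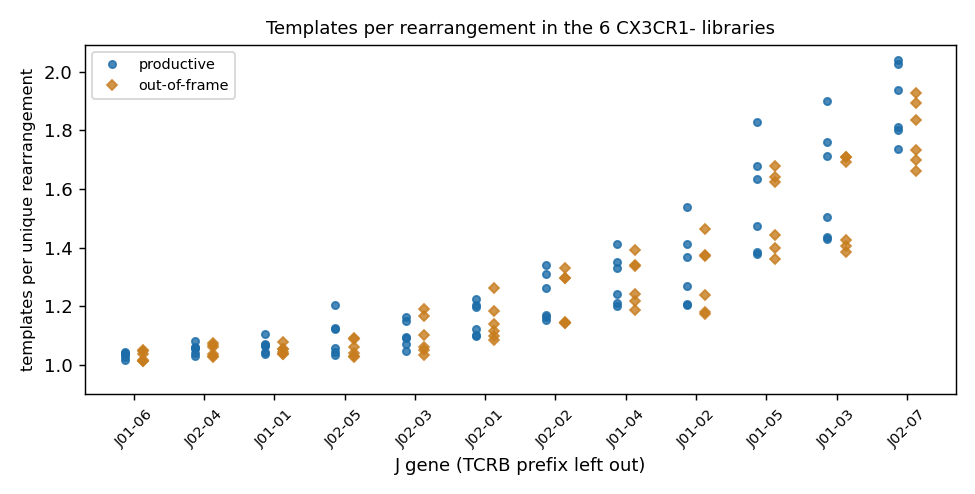
Mean number of templates per unique rearrangement for each of 12 J genes, in the 6 CX3CR1- libraries, for productive (circles) and out-of-frame (diamonds) rearrangements; each point is a library and the vertical axis starts at 0.9. TCRBJ02-05 lies at 1.03 to 1.20 and TCRBJ02-07 at 1.66 to 2.04 in both kinds.

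No J gene followed TCRBJ02-05 closely across the libraries. By Spearman's correlation of productive template shares over 12 libraries, the most similar were TCRBJ02-07 at 0.350, TCRBJ01-06 at 0.175 and TCRBJ01-02 at 0.105. Shares of 1 library add up to a fixed total and libraries of 1 experiment came from the same mice, so these values are given as a description.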

How the data were processed

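Genomic DNA served as template for the immunoSEQ mouse TCRβ assay, read on a NextSeq500, and the authors processed the reads on the vendor's platform. The processing notes name the mm10 build. For each rearrangement the authors deposited a template count, whole and without normalization, which equalled the estimated number of genomes in all 288925 rows. The deposited fraction of each rearrangement refers to all templates of its library and was only checked. Other deposited values (CDR3 length, trimmed and inserted bases, positions of the V and J genes) were used as the authors gave them.

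TCRBJ02-05, the gene lists and the tests were chosen with earlier results of these data known. Shares are percents of productive templates or of unique productive nucleotide rearrangements, and rows without a resolved J gene stayed in the denominator. Productive templates per library ranged from 5893 to 113660. Single shares carry Wilson 95% intervals, and the detection floor is 3 templates.

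The experiment (n = 3) was the unit of replication and the block. Labels were exchanged within experiments in all 216 arrangements for CX3CR1+ T cells and TILs against the CX3CR1- subsets (smallest two-sided p 0.00926), and in 27 for either group alone (smallest p 0.0370). Pairs were tested by exact sign flips. P-values were adjusted by the Benjamini-Hochberg method over the 12 J genes with templates in all 12 libraries, and the threshold was 0.05. The shared experiment code in the labels and the study's repeated-measures design give the pairing. Rearrangements were found again within experiments far more than across them, although deviations of the TCRBJ02-05 template share from group means correlated weakly (pooled r = 0.0869).

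V genes named were the 6 most frequent partners of TCRBJ02-05 by unique rearrangements and the 3 most frequent by templates in CX3CR1+ T cells and in TILs. Clones named were the 3 largest in every CX3CR1+ or TIL library and CDR3s at 0.1% or more in 2 or more experiments. Tied and out-of-frame clones, the frame of the public CDR3 and 2 further CDR3s were chosen after their values were seen. Alternatives were the replicate block, leaving out each experiment, a minimum of 2 templates, other denominators, clonotype definitions, scales and thresholds. The test of the combined comparison was checked on simulated shares with the same spread in all groups and no effect of experiment. Its behaviour with unequal spread between groups was not checked. Python 3.11.15, numpy 2.4.6, pandas 2.3.3, scipy 1.17.1, Biopython 1.88 and matplotlib 3.10.9 were used. Gene positions came from RefSeq on GRCm38.p6.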

Additional observations from a re-analysis of the deposited data

Results flagged for a closer look

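Templates tied between TCRBJ02-05 and TCRBJ02-07 were counted as neither J gene in the reported comparisons, apart from the alternatives that name them, and in some libraries their level was above that of the CX3CR1- libraries, which did not exceed 0.160% of productive templates. They made up 0.369% in CX3CR1+ T cells of experiment A, 3.12% in CX3CR1+ T cells of experiment C and 7.28% in TILs of experiment C. They made up 0.0216% and 0.0242% in the CX3CR1+ and TIL libraries of experiment B, and 0 templates were found in the TILs of experiment A, which allows a share of up to 0.0509%.

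In-frame rearrangements with a stop codon were likewise not compared. TCRBJ02-05 made up 18.4% and 43.9% of their templates in CX3CR1+ T cells of experiments A and B and 31.6% and 32.8% in TILs of experiments A and B, against 10.8% to 14.5% in CX3CR1- libraries. Experiment C went the other way, with 4.14% for CX3CR1+ T cells and 2.05% for TILs, below every CX3CR1- library. These shares rest on few clones. In CX3CR1+ T cells of experiment B, 1 TCRBV04-01 rearrangement held 118 of 198 such TCRBJ02-05 templates, and in TILs of experiment A, 1 TCRBV23-01 rearrangement held 11 of 12.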

How the results depend on the processing

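Values are differences in percentage points between CX3CR1+ T cells with TILs and the CX3CR1- subsets, unless other groups or units are named. Of 103 alternative values for 11 comparisons, 83 kept the sign of the reported one, and the causes of the others were not tested. With no replicate block, no call changed. The share without the public CDR3 was -3.06 (exact permutation p = 0.00216, adjusted p = 0.00866). That difference is lowered by construction, so this p supports nothing further either.

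With 2 or more templates required, the template share differed by 6.18, or by 4.76 for CX3CR1+ T cells alone and 7.60 for TILs alone. Under the same filter the share without the public CDR3 differed by 2.85, the unique share by 3.90, the out-of-frame template share by 5.97, the productive minus the out-of-frame unique share by -0.444 and the CDR3 length by 0.915 nucleotides. Without the public CDR3 the template share differed by -3.06, or by -2.97 for TILs alone, and without the most abundant TCRBJ02-05 rearrangement by -2.12 and -1.72. Weighted by templates, CDR3 length differed by 0.259 nucleotides. The excess of templates in expanded rearrangements differed by 4.95 at a threshold of 0.5%, by 2.66 for the 100 most abundant rearrangements and by -15.4 without the public CDR3.

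With ties counted, the template share differed by 1.96, or by -0.129 for CX3CR1+ T cells alone and 4.06 for TILs alone. Other alternatives chosen, like this one, after seeing the data gave -1.32 for the share without the public CDR3 with ties counted, -4.04 for the out-of-frame template share without its largest rearrangement, and -0.161 for the template share without the largest rearrangement of every J gene.

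When each experiment was left out in turn, the template share ranged from -1.01 (without B) to 1.16 (without C), and that of TILs alone from -0.340 (without B) to 3.11 (without C). The share without the public CDR3 ranged from -3.29 to -2.74 and could not pass the threshold, since 2 experiments allow no exact p under 0.0556. The out-of-frame template share ranged from -2.98 to 1.84, the productive minus the out-of-frame unique share from -0.0617 to 0.256, and the excess in expanded rearrangements from -3.30 to 4.15. Depth limits the TILs of experiment A most, where 3 templates are 0.0509%.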
